A study of Mus musculus with 9 samples.

Results

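The 10 heat shock and chaperone genes described here are the rows of the deposited table whose symbol is *Hspa1a*, *Hspa1b*, *Hsph1*, *Dnajb1*, *Hspb1*, *Hsp90aa1*, *Hspa8*, *Hsp90ab1*, *Hspa5* or *Hspd1* (10 of 54532 genes). The first 6 were set as stress-induced members and the last 4 as constitutive members, from textbook knowledge and not from these data. The tissue was the lambdoidal junction of C57BL/6J mouse embryos, where the nasal and maxillary prominences meet to form the upper lip and primary palate. It was sampled at embryonic day (E) 10.5, E11.5 and E12.5, with 3 RNA-seq libraries per stage and 9 in all. No treatment, heat exposure or genetic change was named for any stage, and the groups are set apart by their labelled age. Tissue of several embryos was pooled for each library, so the p-values measure the spread between pools of one stage.

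Chaperones bind proteins that are unfolded or only partly folded and spend ATP to help them reach or keep their shape. HSP70 proteins take up exposed segments of a client protein, J-domain proteins bring the client and switch on the ATPase, nucleotide exchange factors such as HSP110 release it, and HSP90 completes the folding of kinases and steroid receptors. In stressed cells heat shock factor 1 binds repeated GAA units, the heat shock elements, in the promoters of the inducible genes, whereas the constitutive members are made at all times. HSPA5, also an HSP70, and HSPD1, of another chaperone family, act in the endoplasmic reticulum (ER) and in mitochondria, which also have stress responses of their own.

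The first sequences show why *Hspa1a* and *Hspa1b*, the classic heat-inducible HSP70 genes, have to be read as a pair. They lie next to each other on the minus strand of chromosome 17, *Hspa1a* (ENSMUSG00000091971) at chr17:34969190-34972156 and *Hspa1b* (ENSMUSG00000090877) at chr17:34956436-34959238 (GRCm38). Their coding sequences, 1923 and 1926 bases long in GENCODE vM21, differed by 8 substitutions and 3 gap bases, which is an identity of 99.43%, and the longest run without a difference was 638 bases. The 60 bases from coding position 1357 to 1416, at chr17:34970510-34970569 in *Hspa1a* and chr17:34957592-34957651 in *Hspa1b*, hold 2 of these substitutions, which are in capitals:
Hspa1a coding: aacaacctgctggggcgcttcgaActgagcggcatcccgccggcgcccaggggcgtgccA
Hspa1b coding: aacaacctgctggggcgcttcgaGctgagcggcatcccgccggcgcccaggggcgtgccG
A read from most of the coding sequence fits both genes equally well, and how such reads were counted is not given in the sources used here. The counts of the pair were therefore also analysed as a sum.

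The second set shows the promoters of the stress-induced members in which a heat shock element lay upstream of the gene's 5′ end, taken from RefSeq (GRCm38.p6) as the 250 bases before the start of the gene on its own strand. They cover chr17:34972157-34972406 for *Hspa1a*, chr17:34959239-34959488 for *Hspa1b* (both minus strand) and chr5:135887669-135887918 for *Hspb1* (plus strand). Capitals mark GAANNTTC, which is 2 GAA units head to head and reads the same on both strands:
Hspa1a promoter: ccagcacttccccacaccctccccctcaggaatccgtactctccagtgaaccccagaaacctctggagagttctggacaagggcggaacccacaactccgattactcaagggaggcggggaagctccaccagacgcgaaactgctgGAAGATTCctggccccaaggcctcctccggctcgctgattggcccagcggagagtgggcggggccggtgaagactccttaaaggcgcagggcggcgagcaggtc
Hspa1b promoter: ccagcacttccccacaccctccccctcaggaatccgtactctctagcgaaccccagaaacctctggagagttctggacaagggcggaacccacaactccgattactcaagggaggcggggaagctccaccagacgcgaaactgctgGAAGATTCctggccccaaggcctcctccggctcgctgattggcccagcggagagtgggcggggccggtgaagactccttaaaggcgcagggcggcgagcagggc
Hspb1 promoter: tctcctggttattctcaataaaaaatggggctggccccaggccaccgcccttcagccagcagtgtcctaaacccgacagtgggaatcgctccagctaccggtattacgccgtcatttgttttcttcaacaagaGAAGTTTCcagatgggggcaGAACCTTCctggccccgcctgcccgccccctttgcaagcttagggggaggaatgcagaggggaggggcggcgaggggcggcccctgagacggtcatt
The promoters of *Hspa1a* and *Hspa1b* differed at 3 of 250 bases (98.8% identity) and both held the element with its first base at -104. *Hspb1* held it at -117 and at -97. Of the 10 members 7 were in the RefSeq promoter table, and *Hspa8*, *Hsp90aa1* and *Hsp90ab1* were not used. GAANNTTC was found in 4 of the 7 (*Hspa1a*, *Hspa1b*, *Hspb1* and *Hspd1*) and in 6.69% of 32851 windows of the same length, and TTCNNGAA, the same units tail to tail, in *Hspd1* and *Hsph1* (GRCm38.p6 chr5:149636362-149636369, at -33 and -54 from its 2 RefSeq starts and 7 bases inside the gene's 5′ end) and in 7.17% of windows. The 3-unit element GAANNTTCNNGAA, searched on both strands and overlapping both shorter forms, was found in *Hspd1* alone and in 0.466% of windows. It lay upstream of the second of 2 RefSeq starts of *Hspd1*, as the overlapping matches TTCcgGAAggTTC (chr1:55088064-55088076) and GAAggTTCtaGAA (chr1:55088059-55088071), which begin 167 and 172 bases inside the gene's 5′ end. The ER stress response element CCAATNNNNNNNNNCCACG was found in *Hspa5* as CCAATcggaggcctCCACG (chr2:34772025-34772043, plus strand), 55 bases inside the gene's 5′ end, and in 0.113% of windows. CCAAT was in 5 of the 7 members and 33.8% of windows, and TATAAA in none of the 7 and 12.4% of windows. These matches describe letters in a window, and no binding was measured.

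The total count per library was 16959676–17756251 for E10.5, 18280441–20836804 for E11.5 and 16581009–17919664 for E12.5. Levels are given as CPM, counts scaled to a common library size after correction by the trimmed mean of M values (TMM). All 13 facial mesenchyme markers exceeded 1 CPM at each stage, with a summed level of 1434–2191 CPM at E10.5, 2838–3015 CPM at E11.5 and 2847–3229 CPM at E12.5. Markers of other cells also differed between the stages. The 9 neural and olfactory markers summed to 283–362 CPM at E10.5, 208–232 CPM at E11.5 and 308–338 CPM at E12.5. In E11.5 vs. E10.5, 1 was up and 5 down (3 up and 5 down without the third E10.5 library). In E12.5 vs. E10.5, 1 was up and 3 down (2 up and 3 down without that library), and in E12.5 vs. E11.5, 1 of 6 tested was up and 0 down. *Sox1* fell (48.6 ± 10.3, 0.63 ± 0.476 and 0.77 ± 1.01 CPM), whereas *Stmn2* rose in all 3 comparisons (17.4 ± 5.61, 37.4 ± 5.67 and 106.2 ± 22.4 CPM). The 7 skeletal muscle markers summed to 9.05–21.6, 4.29–4.93 and 3.08–4.36 CPM, and *Des* among them was down in all 3 comparisons. The 6 lens markers summed to 1.62–4.43, 1.58–1.88 and 2.21–2.76 CPM, with 1 of them above 1 CPM at each stage. The part of these markers in the results was not tested. The third E10.5 library stood apart from the other two. Over genes, the SD of its log2 difference was 0.711 and 0.703 from them, against 0.392 between them and 0.373–0.591 within the other stages. Its log2 difference from the mean of the other E10.5 libraries decreased with the GC content of the transcript (Spearman's rho -0.546 across 16363 genes). Each library set against the others of its stage in this way gave 0.438 and 0.469 in the other E10.5 libraries and -0.26 to 0.274 in the later stages. The third E10.5 library is part of the reference behind 0.438 and 0.469, so these are not independent of -0.546. Its summed markers were lower for facial mesenchyme (1434 against 2149 and 2191 CPM) and endothelium (102 against 281 and 277 CPM) and higher for surface epithelium (759 against 414 and 462 CPM), and mitochondrial genes held 2.46% of its counts against 1.43% and 1.32%. The part of these differences in the results was not tested, and results that rest on this library are given with and without it. In bulk tissue, fewer cells of a type and less RNA per cell cannot be told apart.

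Several members departed strongly in that library. *Hsp90aa1* stood 1.30 above the mean of the other E10.5 libraries on the log2 scale, *Hspb1* 0.95, *Hspa8* 0.61, *Hspa5* 0.56, *Hspd1* 0.55 and *Hsph1* 0.38, whereas *Hsp90ab1* differed by 0.10 and *Dnajb1* by -0.19. *Hspa1a* and *Hspa1b* lay below the other libraries, at -0.77 and -1.15. Ordered by the GC content of their transcripts, from 43.7% in *Hsp90aa1* to 61.7% in *Hspb1*, the AT-rich members lay above and the GC-rich members below, and *Hspb1* was the exception.

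**Figure D1:**
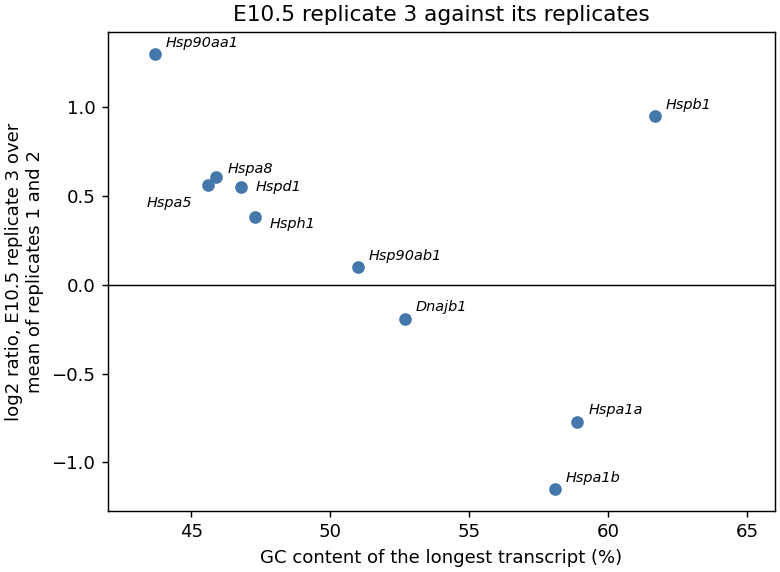
Log2 ratio of the CPM in E10.5 replicate 3 over the mean of E10.5 replicates 1 and 2 (vertical axis) against the GC content of the longest transcript in percent (horizontal axis), 1 point per gene. The ratio was 1.30 in *Hsp90aa1* at 43.7% GC and -1.15 in *Hspa1b* at 58.1% GC, while *Hspb1* at 61.7% GC stood at 0.95.

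The 10 members together took 1.01%, 1.14% and 1.43% of all counts in the E10.5 libraries, 0.855%, 0.958% and 0.9% at E11.5 and 0.794%, 0.749% and 0.791% at E12.5. To compare genes, CPM was divided by gene length in kilobases (kb). At E11.5, where no neighbours in the order overlapped, the levels per kb were 1153 ± 94.1 CPM for *Hsp90ab1* (SD, n = 3 here and in what follows), 572 ± 23.8 CPM for *Hspa8*, 327 ± 33.8 CPM for *Hsp90aa1*, 231 ± 18.9 CPM for *Hspd1* and 199 ± 9.44 CPM for *Hspa5*. *Hsph1* (27.4 ± 0.898 CPM per kb), *Dnajb1* (23.6 ± 1.72) and *Hspb1* (9.19 ± 0.326) followed, and *Hspa1b* (1.26 ± 0.345) and *Hspa1a* (0.247 ± 0.133) were lowest. The 4 constitutive members thus stood above 5 of the 6 stress-induced members, with *Hsp90aa1* between *Hspa8* and *Hspd1*. The order was the same at E10.5, where the libraries of *Hspa8* overlapped those of *Hsp90aa1*, which overlapped those of *Hspd1*. At E12.5 *Hspa5* (196 ± 19.6 CPM per kb) stood above *Hspd1* (176 ± 31.4) and *Dnajb1* (24.9 ± 1.05) above *Hsph1* (19.4 ± 1.38), but *Hspa5* overlapped *Hspd1* and *Hsph1* overlapped *Hspb1* (18.7 ± 3.91). Per kb, *Hspa8* exceeded the summed *Hspa1a* and *Hspa1b* 356, 307 and 1043 times in the E10.5 libraries, 277, 418 and 506 times at E11.5 and 162, 180 and 237 times at E12.5, so that all 3 E12.5 ratios were below those of both earlier stages.

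**Figure D2:**
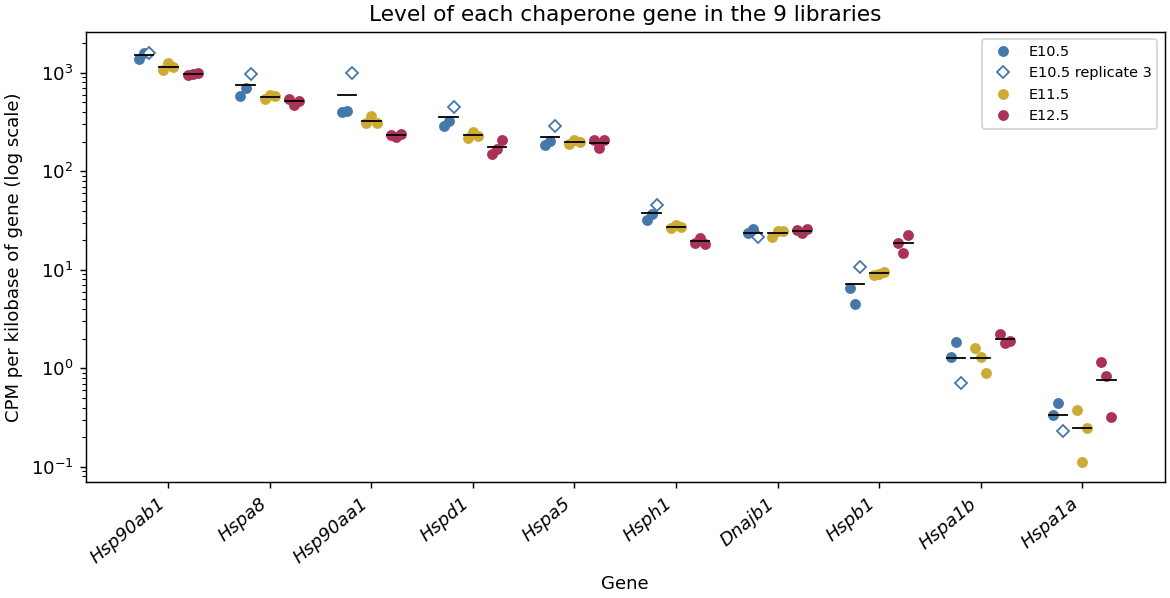
CPM per kilobase of gene (log axis) of the 10 genes in each of the 9 libraries, with stages in colour, E10.5 replicate 3 as an open diamond and a bar at the mean of 3 libraries. *Hsp90ab1* is highest (971–1532 as stage means) and *Hspa1a* lowest (0.247–0.769), and the E12.5 libraries lie below the E10.5 libraries in *Hsp90ab1*, *Hspa8*, *Hsp90aa1*, *Hspd1* and *Hsph1* and above them in *Hspb1*.

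The stages were compared in pairs with edgeR's quasi-likelihood test (6 libraries each, Benjamini-Hochberg adjustment over all genes tested): E11.5 vs. E10.5, called the first interval here, E12.5 vs. E11.5, the second interval, and E12.5 vs. E10.5, the whole span. The libraries of each stage served in 2 of the 3 comparisons. All 10 members had enough counts to be tested in each. Over the whole span, *Hspb1* rose and *Hsph1*, *Hsp90aa1*, *Hsp90ab1* and *Hspd1* fell (1 up, 4 down and 5 not past an adjusted p of 0.05, where 24.6% of 15899 genes passed, 14% up and 10.5% down). Of these, *Hspb1*, *Hsp90aa1* and *Hspd1* also met the fold threshold for a differentially expressed gene (DEG, at least 1 in either direction on the log2 scale), as did 15% of all genes. Over the second interval, *Hspb1* rose and *Hsph1* and *Hsp90aa1* fell (3 of 10, where 12.2% of 15808 genes passed, 7.61% up and 4.57% down), and *Hspb1*, at the fold threshold, was the only DEG among them (5.1% of all genes). Over the first interval, 0 of the 10 members passed with edgeR (11.8% of 15708 genes, 6.19% up and 5.58% down) or were DEGs (6.07%). Of them, 4 had an unadjusted p under 0.05, 4 passed with DESeq2 (17.5% of all genes) and 4 with the GC trend of each library removed (22.5%).

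Stress-induced and constitutive members were set side by side by their counts and medians. The 6 stress-induced members split over the whole span, with 1 up, 2 down and 3 not passing and log2 fold changes from -1.37 to 1.36 (median 0.34). *Hspa1a* (1.18) and *Hspa1b* (0.61), which are read as a pair and did not pass, count here as 2 of the 6. Both lie above the median, while *Dnajb1* lay at 0.07. The medians of this paragraph were not computed with the pair as 1 feature. The 4 constitutive members lay on one side of 0, with 0 up, 2 down and 2 not passing and values from -1.01 to -0.21 (median -0.61). Over the second interval the medians were 0.34 and -0.22, and over the first they were -0.25 and -0.40. Without the third E10.5 library the stress-induced and constitutive medians were 0.17 and -0.47 over the whole span. Over the first interval they were then -0.31 and -0.27, in the reverse order. The medians over all genes tested were -0.032, 0.019 and -0.0063 for the first interval, the second interval and the whole span. The libraries of the 2 stages did not overlap for 4 members over the first interval (36.6% of all genes), 6 over the second (35.2%) and 6 over the whole span (42.5%).

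**Figure D3:**
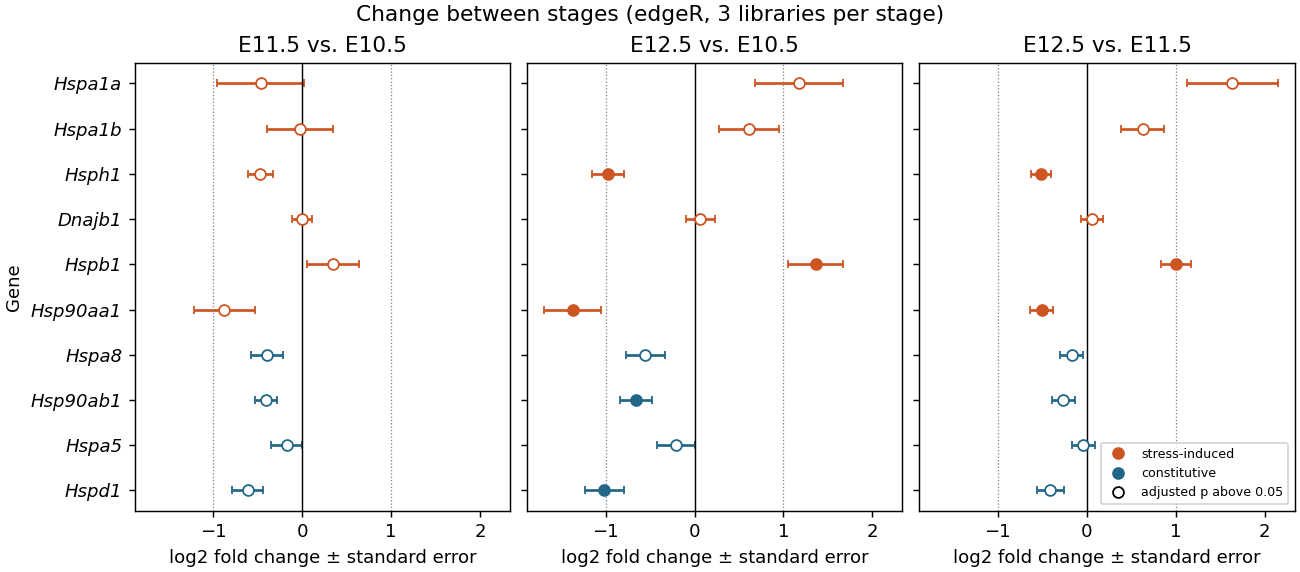
Log2 fold change (positive where the later stage is higher) with its standard error for the 10 genes in the 3 comparisons, with 3 libraries per stage, stress-induced genes in orange, constitutive genes in blue and open symbols for an adjusted p above 0.05 (edgeR). The 4 constitutive genes lie left of 0 in each panel, and the stress-induced genes range from -1.37 (*Hsp90aa1*) to 1.36 (*Hspb1*) in E12.5 vs. E10.5.

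Both cytosolic HSP90 genes were lower at E12.5 than at E10.5. *Hsp90aa1* (ENSMUSG00000021270, chr12:110690605-110702728, minus strand), the stress-induced HSP90, stood at 1556, 1623 and 3907 CPM in the E10.5 libraries, 1210.1, 1439 and 1208 CPM at E11.5 and 914, 883 and 949.8 CPM at E12.5. The 3 stages did not overlap, and the third E10.5 library was more than double the other two. *Hsp90aa1* fell by 1.37 on the log2 scale from E10.5 to E12.5 (SE 0.32, adjusted p = 0.011 with edgeR) and by 0.51 from E11.5 to E12.5 (SE 0.13, adjusted p = 0.029). Without the third E10.5 library its fold change in E12.5 vs. E10.5 was -0.80 (SE 0.15, edgeR adjusted p = 0.00389), and it was no longer a DEG. Without E12.5 replicate 1 the adjusted p was 0.0507.

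*Hsp90ab1* (ENSMUSG00000023944, chr17:45567775-45573271, minus strand), the constitutive HSP90 and the most abundant member, stood at 4181, 4803 and 4799 CPM at E10.5, 3173, 3737 and 3467 CPM at E11.5 and 2882, 2888 and 2968 CPM at E12.5. Its stages did not overlap either, and its level in E10.5 replicate 3 was no higher than in replicate 2. It fell by 0.66 from E10.5 to E12.5 (SE 0.18, edgeR adjusted p = 0.0205), and the adjusted p was 0.0891 without E10.5 replicate 2 and 0.0828 without E12.5 replicate 1. From E11.5 to E12.5 the log2 fold change was -0.26 (SE 0.13, adjusted p = 0.207). The ratio of *Hsp90aa1* to *Hsp90ab1* per kb was 0.284, 0.258 and 0.621 in the E10.5 libraries, 0.291, 0.294 and 0.266 at E11.5 and 0.242, 0.233 and 0.244 at E12.5. The E12.5 ratios were below those of both other stages, and the third E10.5 library was far above the rest. Of the 50-base stretches of *Hsp90aa1*, 58.51% also occur in transcripts of other genes, mainly the pseudogene *Gm12346* (214–983 counts per library), against 4.49% in *Hsp90ab1*.

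*Hsph1* (ENSMUSG00000029657, chr5:149614287-149636376, minus strand), the HSP110 that releases nucleotide from HSP70, was lower at each later stage. Its libraries stood at 232, 271 and 328 CPM at E10.5, 195, 207 and 196 CPM at E11.5 and 136, 153 and 134 CPM at E12.5. The 3 stages did not overlap. The log2 fold change was -0.97 in E12.5 vs. E10.5 (SE 0.18, edgeR adjusted p = 0.0033), and without the third E10.5 library it was -0.83 (adjusted p = 0.00307). From E11.5 to E12.5 *Hsph1* fell by 0.51 (SE 0.11, adjusted p = 0.0161). This smaller difference, and that of *Hsp90aa1*, lost the call when E11.5 replicate 1, 2 or 3 or E12.5 replicate 1 was left out, with adjusted p of 0.0547, 0.0857, 0.0678 and 0.067 for *Hsph1* and 0.0759, 0.16, 0.0865 and 0.0913 for *Hsp90aa1*.

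*Hspd1* (ENSMUSG00000025980, chr1:55077835-55088243, minus strand), the HSP60 of the mitochondrial matrix, showed the same order of stages. It stood at 761, 865 and 1189 CPM at E10.5, 569.7, 667 and 597 CPM at E11.5 and 392, 447 and 555 CPM at E12.5. The stages did not overlap, although the highest E12.5 library lay just under the lowest E11.5 library. It fell by 1.01 from E10.5 to E12.5 (SE 0.22, edgeR adjusted p = 0.00726), which was 0.81 without the third E10.5 library (adjusted p = 0.00864) and then no longer a DEG. The log2 fold change in E12.5 vs. E11.5 was -0.41 (SE 0.15, adjusted p = 0.0999), and -0.57 without E12.5 replicate 3 (adjusted p = 0.0132). The pseudogene *Hspd1-ps3*, which holds 42.8% of its 50-base stretches, had 151–558 counts per library.

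The constitutive HSP70 genes did not pass in any of the 3 comparisons. *Hspa8* (ENSMUSG00000015656, chr9:40800984-40810087, plus strand), the cytosolic HSC70, stood at 2520.1, 3009.6 and 4207 CPM at E10.5, 2343, 2535 and 2501 CPM at E11.5 and 2354, 2049 and 2237 CPM at E12.5. The E12.5 libraries all lay below those of E10.5 and overlapped those of E11.5. Its log2 fold change in E12.5 vs. E10.5 was -0.55 (SE 0.22, edgeR adjusted p = 0.0896), and without the third E10.5 library it was -0.32 (adjusted p = 0.178). With DESeq2 it passed (adjusted p = 0.041). Of its 50-base stretches, 52.65% also occur in other transcripts, among them the pseudogene *Gm8355* (63–136 counts per library). Its exons also hold *Snord14c*, *Snord14d* and *Snord14e*, small nucleolar RNA genes over 6.09% of its length.

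*Hspa5* (ENSMUSG00000026864, chr2:34771970-34777547, plus strand), the HSP70 of the ER known as BiP, stood at 786, 865 and 1213 CPM at E10.5, 804, 884 and 841 CPM at E11.5 and 870.0, 733 and 882 CPM at E12.5. The 3 stages overlapped. The log2 fold changes were -0.18 (SE 0.17), -0.21 (SE 0.21) and -0.04 (SE 0.13) over the first interval, the whole span and the second interval. Without the third E10.5 library the first 2 of these were 0.03 and 0.0042.

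Among the stress-induced members *Hspb1* (ENSMUSG00000004951, chr5:135887919-135889563, plus strand), the small heat shock protein HSP27 that holds unfolded proteins without ATP and binds actin filaments, was higher at E12.5. Its CPM was 6.79, 4.62 and 11 at E10.5, 9.16, 9.43 and 9.83 at E11.5 and 19.4, 15.1 and 23.2 at E12.5, from 80–388 counts per library. Every E12.5 library exceeded every earlier one, whereas the third E10.5 library lay above all of E11.5. *Hspb1* rose by 1.36 from E10.5 to E12.5 on the log2 scale (SE 0.31, edgeR adjusted p = 0.00933), a 2.57-fold difference, and by 1.01 from E11.5 to E12.5 (SE 0.17, adjusted p = 0.00439). The second value lay at the DEG threshold and was 0.77–0.99 under several alternatives, all of which kept its adjusted p under 0.05. In E12.5 vs. E10.5 the value was 1.75 without the third E10.5 library (adjusted p = 0.000893), 1.20 without E12.5 replicate 3 (adjusted p = 0.0504) and 1.07 with the GC trend of each library removed (adjusted p = 0.0663). The summed surface epithelium markers stood at 708–782 CPM at E12.5, 457–479 CPM at E11.5 and 414–759 CPM at E10.5. Of the E10.5 libraries, the one with the highest *Hspb1* also had the highest sum. The list was mixed over the whole span, with 3 of 9 markers up, 2 down and a median of -0.03 (4 up, 2 down and 0.37 without the third E10.5 library). *Krt5* (2.11 to 151.9 CPM) and *Krt14* (16.0 to 158.1 CPM) rose, while *Krt8* (110.2 to 62.1 CPM) and *Krt18* (94.6 to 46.8 CPM) fell. The part of the epithelium in the *Hspb1* level was not tested. The pseudogene *Hsp25-ps1*, which holds 51.65% of its 50-base stretches, had 0–3 counts per library.

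The inducible pair was close to the floor of the data. *Hspa1a* had 17, 23 and 11 counts at E10.5, 21, 7 and 14 at E11.5 and 60, 46 and 16 at E12.5. *Hspa1b* had 62, 89 and 32 counts at E10.5, 83, 76 and 48 at E11.5 and 110, 94 and 88 at E12.5. The E12.5 libraries of *Hspa1b* lay above those of E11.5 and overlapped those of E10.5, and the stages of *Hspa1a* overlapped. The log2 fold change in E12.5 vs. E11.5 was 1.63 for *Hspa1a* (SE 0.51, edgeR adjusted p = 0.0617) and 0.63 for *Hspa1b* (SE 0.24, adjusted p = 0.108), and in E12.5 vs. E10.5 it was 1.18 (SE 0.49, adjusted p = 0.104) and 0.61 (SE 0.34, adjusted p = 0.213). Without E12.5 replicate 3, where *Hspa1a* was low, its values were 1.99 (adjusted p = 0.0168) and 1.53 (adjusted p = 0.0404). With DESeq2 it passed over the second interval (1.62, adjusted p = 0.0185) with all 6 libraries.

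Summed, *Hspa1a* and *Hspa1b* stood at 4.67, 6.46 and 2.67 CPM at E10.5, 5.57, 3.97 and 3.26 CPM at E11.5 and 9.63, 7.57 and 6.22 CPM at E12.5. All E12.5 libraries exceeded those of E11.5, and 1 E10.5 library lay within the E12.5 range. The sum rose by 0.86 from E11.5 to E12.5 (SE 0.24, edgeR adjusted p = 0.0431). This call was lost without E11.5 replicate 2 (0.79, adjusted p = 0.155), E11.5 replicate 3 (0.68, adjusted p = 0.168) or E12.5 replicate 1 (0.68, adjusted p = 0.179). In E12.5 vs. E10.5 it was 0.76 (SE 0.33, adjusted p = 0.121) and in E11.5 vs. E10.5 -0.11 (SE 0.35, adjusted p = 0.873). *Hspa1b* gave 64.7–91.6% of the sum per library. The antisense gene *Gm20481* overlaps 19.01% of *Hspa1a*, and whether reads were counted by strand is not given in the sources used here.

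*Dnajb1* (ENSMUSG00000005483, chr8:83608193-83612653, plus strand), the HSP40 that delivers clients to HSP70, had the smallest fold change of the 10 in both comparisons with E10.5. It stood at 75.4, 83.3 and 69.6 CPM at E10.5, 69.3, 79.3 and 78.4 CPM at E11.5 and 80.7, 76.0 and 82.5 CPM at E12.5. All stages overlapped. The log2 fold changes were -0.0049 (SE 0.11), 0.07 (SE 0.16) and 0.06 (SE 0.12) over the first interval, the whole span and the second interval, with edgeR adjusted p of 0.984, 0.804 and 0.761.

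The result of the first interval depended on the third E10.5 library. With it, the members nearest the threshold were *Hspd1* (-0.61, SE 0.17, edgeR adjusted p = 0.0548), *Hsph1* (-0.47, SE 0.14, adjusted p = 0.0612) and *Hsp90ab1* (-0.41, SE 0.12, adjusted p = 0.0619), and for each the E11.5 libraries all lay below those of E10.5. *Hsp90aa1* had a larger fold change and a wider error (-0.87, SE 0.34, adjusted p = 0.136). Without that library, *Hspd1* fell by 0.41 (adjusted p = 0.00181), *Hsp90ab1* by 0.37 (adjusted p = 0.00388), *Hsph1* by 0.33 (adjusted p = 0.00353) and *Hsp90aa1* by 0.30 (adjusted p = 0.0112), and *Hspb1* rose by 0.73 (adjusted p = 0.00719). These were 5 of 10 members, where 39.6% of 16263 genes passed, and 0 met the fold threshold. Without E10.5 replicate 1, *Hspd1* and *Hsph1* passed, and the share of all genes passing in that fit was not computed. In E12.5 vs. E10.5 the same 5 members passed with and without the third library (30.1% of 16501 genes without it), and *Hspb1* was the only DEG without it.

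**Figure D4:**
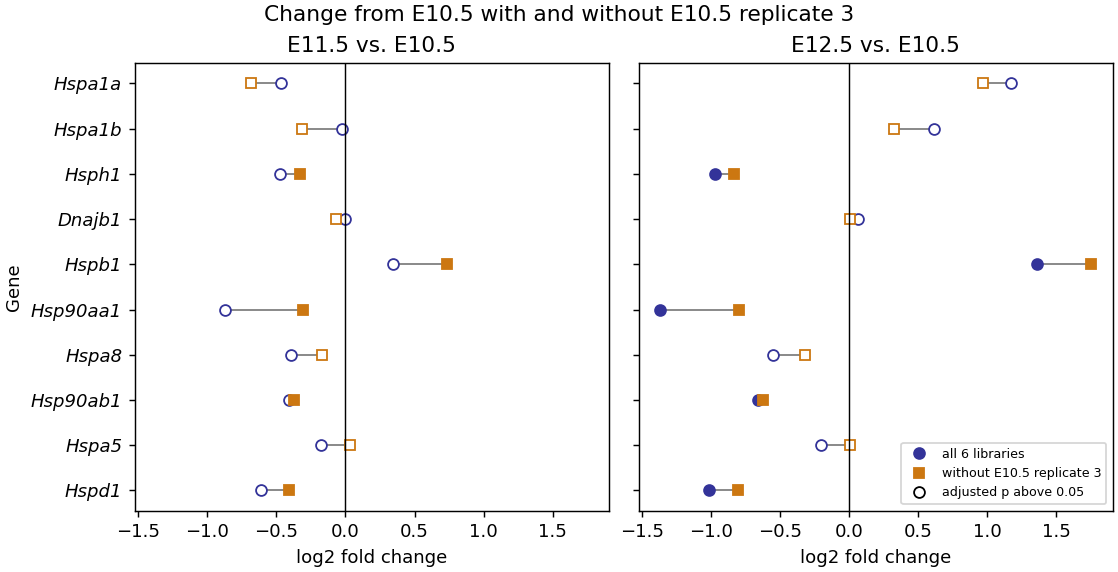
Log2 fold change over the first interval (E11.5 vs. E10.5, left) and the whole span (E12.5 vs. E10.5, right) for the 10 genes with all 6 libraries (circles) and without E10.5 replicate 3 (squares), open where the adjusted p is above 0.05 (edgeR). The value of *Hsp90aa1* moves from -0.87 to -0.30 and from -1.37 to -0.80, and *Hspb1*, *Hsph1*, *Hsp90aa1*, *Hsp90ab1* and *Hspd1* are filled squares in both panels.

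Over the 9 libraries, which share stages and the departure of the third E10.5 library, *Hsph1*, *Hspd1*, *Hspa8* and both HSP90 genes varied together. Pearson's r of log2 CPM was 0.96 between *Hsp90aa1* and *Hspa8*, 0.95 between *Hsph1* and *Hsp90ab1*, and 0.94 for *Hspd1* with each of *Hsp90aa1*, *Hsp90ab1* and *Hsph1*. *Hspb1* gave negative values with *Hsp90ab1* (r = -0.77) and *Hsph1* (r = -0.76), as did *Hspa1b* with *Hsp90aa1* (r = -0.76), whereas *Hspa1a* and *Hspa1b* had r = 0.66. Of 16375 genes, those most like the summed *Hspa1a* and *Hspa1b* were *Csf1* (r = 0.945), *Zdhhc1* (0.944), *Cbx6* (0.93), *Baiap2* (0.921) and *Mapk15* (0.92). These values describe 9 libraries.

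The partners of the members were read from lists of the wider chaperone network. Their counts stand beside shares over all genes of 11.8%, 24.6% and 12.2% over the first interval, the whole span and the second interval. Without the third E10.5 library, 39.6% of all genes passed over the first interval and 30.1% over the whole span. Of 10 other HSP70 and HSP110 genes, *Hspa4l*, an HSP110 relative of *Hsph1*, fell from 55.8 ± 27.1 CPM at E10.5 to 11.9 ± 0.493 CPM at E11.5 (log2 fold change -2.22, SE 0.31, edgeR adjusted p = 0.00468) and 10.7 ± 1.66 CPM at E12.5 (-2.38, adjusted p = 0.000338). Without the third E10.5 library these were -1.76 and -1.92, and both passed. Over the whole span the list gave 1 up and 3 down, with *Hspa4* (-0.58, adjusted p = 0.0409, and 0.0536 without the third E10.5 library) and *Hspa12a* (-0.75, adjusted p = 0.0296) lower and *Hspa12b* higher (1.23, adjusted p = 0.0131), and without the third E10.5 library 1 up and 4 down. Its medians were -0.13, -0.49 and -0.21 over the first interval, the whole span and the second interval. In the last, *Hspa1l*, next to *Hspa1a* and overlapped over 71.93% by the antisense gene *Gm10501*, was lower (-1.33, edgeR adjusted p = 0.0271). Its level was close to the floor of the data, at 1.88 ± 0.275 CPM at E11.5 and 0.752 ± 0.191 CPM at E12.5.

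Of 14 HSP90 paralogs and co-chaperones, 0 passed over the first interval with edgeR (8 down without the third E10.5 library), 3 were down over the whole span and 1 was down over the second interval, and none was up in these fits. The HSP90 immunophilins *Fkbp4* (844 ± 54.7 CPM at E10.5 and 527 ± 69.6 CPM at E12.5, log2 fold change -0.68, edgeR adjusted p = 0.0189) and *Fkbp5* (-0.52, adjusted p = 0.0322) and the mitochondrial HSP90 *Trap1* (-0.50, adjusted p = 0.0379) fell from E10.5 to E12.5. *Fkbp5* also fell from E11.5 to E12.5 (-0.51, adjusted p = 0.0137). The medians of the list were -0.28, -0.34 and -0.04 in the order above.

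Of 19 J-domain co-chaperones, the relatives of *Dnajb1*, 1 was up and 2 down over the first interval, 2 up and 2 down over the whole span and 0 up and 1 down over the second interval. When the third E10.5 library was left out, 3 were up and 2 down over the first interval. *Dnajb4* rose (0.53 and 0.77 in the first 2 of these, edgeR adjusted p = 0.0498 and 0.012), as did *Dnajb2* in E12.5 vs. E10.5 (0.66, adjusted p = 0.0425, and 0.0571 without the third E10.5 library). *Dnajc1*, of the ER membrane, fell in all 3 (-0.82, -1.39 and -0.58), *Dnajc19*, of the mitochondrial inner membrane, in E11.5 vs. E10.5 (-0.64, adjusted p = 0.0461), and *Dnajc3*, a partner of *Hspa5*, in E12.5 vs. E10.5 (-0.61, adjusted p = 0.028). Of 10 nucleotide exchange factors, the mitochondrial *Grpel1* fell in E11.5 vs. E10.5 (-0.44, adjusted p = 0.0415, with 11.65% of its exons under an antisense gene) and the ER-resident *Sil1* rose in E12.5 vs. E10.5 (0.72, adjusted p = 0.0254). Of 15 chaperonins and prefoldins, with medians of -0.30, -0.36 and -0.09, and of 3 tested of 7 other small heat shock proteins, 0 passed in each comparison with edgeR. Without the third E10.5 library, 4 and 1 of them were down in E11.5 vs. E10.5.

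Of 26 genes of the ER and the unfolded protein response, the pathway of *Hspa5*, 0 passed over the first interval with edgeR (4 up and 6 down without the third E10.5 library), 3 were up and 1 down over the whole span and 1 was up over the second interval, with medians of 0.0, 0.10 and 0.07. Those up in E12.5 vs. E10.5 were the collagen chaperone *Serpinh1* (from 759.5 ± 104 to 1184 ± 254 CPM, log2 fold change 0.64, edgeR adjusted p = 0.0456, and 0.067 without the third E10.5 library), the prolyl isomerase *Fkbp10* (0.78, adjusted p = 0.0445) and *Ddit3*, the stress factor CHOP (0.80, adjusted p = 0.0263). *Ddit3* also rose from E11.5 to E12.5 (0.62, adjusted p = 0.047). It shares 10.86% of its exon length with other genes, among them a further entry of the same symbol, which was left out. Of 3 tested of 4 genes listed with the heat shock factors, only *Hsbp1* passed in E12.5 vs. E10.5. *Hsbp1* encodes a binding partner of heat shock factor 1 and not a factor itself. It rose from E10.5 to E12.5 (82.0 ± 4.7 to 129 ± 30.2 CPM, 0.66, adjusted p = 0.0338).

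Of 16 other heat-inducible genes, of which *Dnajb4*, *Hspa4l*, *Fkbp4* and *Hspa4* also belong to the lists above, 1 was up and 1 down over the first interval, 2 up and 3 down over the whole span and 1 up over the second interval, with medians of -0.27, -0.36 and 0.02. Without the third E10.5 library, 2 were up and 7 down over the first interval and 2 up and 2 down over the whole span. *Ier5*, which acts with heat shock factor 1, rose from 50.4 ± 12 CPM at E10.5 and 68.6 ± 4.41 CPM at E11.5 to 109 ± 20.9 CPM at E12.5 (1.11 and 0.65, edgeR adjusted p = 0.00476 and 0.0188). Immediate early genes, which respond within minutes to serum, injury or handling of tissue, were read beside the inducible members. Of 14 tested of 16, 2 were up over the first interval, 5 up over the whole span and 5 up and 1 down over the second interval. The medians were 0.05, 0.38 and 0.39 in that order. Leaving out the third E10.5 library, 2 were up and 6 down over the first interval (median -0.18) and 5 up and 3 down over the whole span (median 0.24). *Klf6* (0.52, edgeR adjusted p = 0.0289) and *Gadd45b* (1.18, adjusted p = 0.0136) rose over the first interval, and *Gadd45b* (1.41, adjusted p = 0.00109) and *Ier3* (1.53, adjusted p = 0.00521) over the second. *Gadd45b* rose by 2.59 from E10.5 to E12.5 (adjusted p = 7.24e-05), *Ier3* by 1.75 (adjusted p = 0.00551) and *Zfp36* by 1.22 (adjusted p = 0.00399), *Fos* rose from 1.51 ± 0.347 to 5.31 ± 2.4 CPM between E11.5 and E12.5 (1.80, adjusted p = 0.00872), and *Jun* fell in that comparison (-0.49, adjusted p = 0.0331). Their summed level overlapped between the stages, at 222–390 CPM at E10.5, 274–331 CPM at E11.5 and 273–331 CPM at E12.5. The overlap of E10.5 with the later stages rested on E10.5 replicate 3, at 222 CPM. E10.5 replicates 1 and 2, at 390 and 378 CPM, lay above every E11.5 and E12.5 library. The part of these genes' changes in the level of *Hspa1a* and *Hspa1b* was not tested.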

How the data were processed

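RNA was extracted from lambdoidal junction tissue at 3 stages, with 3 libraries each. The authors mapped reads to mm10 with HISAT2 2.0.5 and deposited raw read counts per gene, made with featureCounts and not normalized, for 54532 genes. The gene length column of the table was used for levels per kilobase. The table also holds FPKM values and the fold changes and p-values of the authors' DESeq2 comparisons, which were not used. Strand setting and treatment of reads with several positions are not given in the sources used here. Total counts of 16581009–20836804 per library set the precision of low genes.

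The 3 pairs of stages were fitted separately, with 6 libraries each, in edgeR 4.0.16 (R 4.3.3) with filterByExpr, TMM normalization, the quasi-likelihood test and Benjamini-Hochberg adjustment over all genes tested. Passing means an adjusted p of at most 0.05, and a DEG also differs by at least 1 on the log2 scale. Standard errors were obtained from the log2 fold change and the F statistic (its square root being their ratio). With 3 libraries against 3, an exact permutation test of one gene cannot give a p below 0.1. For correlations, log2 CPM was computed with 2 as the prior count. The procedure was tested on simulated counts. Coordinates are those of the table and matched GENCODE vM21 for 10 of 10 members. GC content, coding sequences, exon overlaps and shared 50-base stretches came from GENCODE vM21, the coding sequences were aligned with Biopython 1.88, and promoters came from RefSeq.

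All members are named in each comparison, and from each list of chaperone, co-chaperone, heat shock factor, ER, heat-inducible and immediate early genes the 3 genes per direction with the smallest p among those passing, with the 5 genes most like the HSP70 pair. Named cell type markers were chosen after their values were seen. The members and lists were chosen with earlier results of these data known. Alternatives were DESeq2 1.42.0 (its size factors in edgeR, and its own test), upper quartile normalization, genes with at least 1 count or at least 10 in every library, all 9 libraries in 1 fit, the replicate number as a block, the GC trend of each library removed (lowess, span 0.3), the HSP70 pair summed, an adjusted p of at most 0.01, and each library left out in turn.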

Additional observations from a re-analysis of the deposited data

How the results depend on the processing

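Calls near the threshold and genes with few counts limit these results, and the causes of the shifts below were not tested. Members passing over the first interval numbered 0, but 4 with DESeq2, 4 with all genes of at least 1 count, 4 with the GC trend removed, 1 with all 9 libraries in 1 fit, and 0–5 with a library left out (5 without E10.5 replicate 3 and 2 with replicate 1 of that stage left out). Of all genes, 11.8% passed there, 17.5% with DESeq2, 22.5% with the GC trend removed and 39.6% without E10.5 replicate 3. Under the other settings of this paragraph the share of all genes passing was not computed. The counts of members passing there cannot be set against it. Over the whole span they numbered 5, but 3 at an adjusted p of at most 0.01 and 3–5 with a library left out (3 without E12.5 replicate 1). The 3 DEGs there became 1 with the GC trend removed and 1–4 with a library left out (1 without E10.5 replicate 3 or E12.5 replicate 1). Over all genes these were 2392, against 2479 with the GC trend removed, 2738 without E10.5 replicate 3 and 1895 without E12.5 replicate 1. Over the second interval the 3 passing members became 5 with all genes of at least 1 count, 1 with all 9 libraries in 1 fit, 1 at an adjusted p of at most 0.01, and 1–5 with a library left out. The 1 DEG there, *Hspb1* (1.01), became 0 with DESeq2's size factors in edgeR (0.99) or with the GC trend removed (0.77), and 0–1 with a library left out (0 without E11.5 replicate 1 or 2). *Hspb1* was also under the fold threshold with DESeq2's own test, with all genes of at least 1 count, under the replicate block and without E12.5 replicate 3 (0.84–0.99), where the 1 DEG was *Hspa1a* (1.59–1.99). No member that passed in either fit changed direction under these alternatives. Deviations from the stage means correlated at -0.15 to 0.22 between libraries of the same replicate number and at -0.22 to 0.22 between those of different numbers. With 3 libraries per stage, whose deviations depend on each other, these values cannot decide whether the numbers pair the libraries. With the replicate number as a block, 0, 5 and 3 members passed and 0, 3 and 1 were DEGs over the first interval, the whole span and the second interval. In the last, *Hspa1a* passed under the block (1.59, adjusted p = 0.0143) and was the DEG in place of *Hspb1*, and *Hsp90aa1* did not (-0.50, adjusted p = 0.0569). Over all genes, DEGs over the first interval numbered 954, but 1592 when E10.5 replicate 3 was left out, 395 when E11.5 replicate 1 was and 453 when E11.5 replicate 3 was. Over the second interval there were 806, but 502 or 512 when E11.5 replicate 2 or E12.5 replicate 1 was left out.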
